A study of Mus musculus with 4 samples.

Results

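The nuclear-encoded genes of oxidative phosphorylation were followed in mouse liver RNA over 4 circadian times. Members were all genes whose RefSeq transcript maps to a symbol that starts with Ndufa, Ndufb, Ndufc, Ndufs, Ndufv, Sdh, Uqcr, Cox4 to Cox8 or Atp5 and that had a mean of at least 100 reads. These prefixes took 97 genes, and 82 of them passed the read minimum, among 8884 genes that passed it in the whole series. The 82 comprised 36 subunits of complex I, 4 of complex II, 8 of complex III, 11 of complex IV, 14 of complex V and 9 genes that are not subunits of a mature enzyme (6 Ndufaf and 2 Sdhaf assembly factors, and Cox7a2l, a supercomplex factor).

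Oxidative phosphorylation passes electrons from NADH (through complex I) and from succinate (through complex II) by way of ubiquinone, complex III and cytochrome c to oxygen at complex IV. The proton gradient that results drives ATP synthesis by complex V. Complex II is encoded wholly in the nucleus, while the other complexes combine nuclear subunits with a few core subunits made from the mitochondrial genome, so that both genomes supply one enzyme.

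The animals were C57/BL6 mice with the ClockΔ19 mutation, an allele of the circadian transcription factor gene Clock, and the transgenes Scg2:tTA and tetO::Clock-HA, in which the Scg2 promoter drives a doxycycline-repressed activator of tagged Clock. All of them drank doxycycline at 30 ug/ml from 3 days before constant darkness, after a light cycle of 12 h light:12 h dark, so no library is free of the mutation, the transgenes or the drug. Polyadenylated liver RNA was collected at CT22, CT28, CT34 and CT40 (circadian time in hours), and each time is a single library (1 per time) of RNA that was pooled over 3 animals. There is therefore no replicate at any time: no difference below has a test, the comparisons are between libraries, and intervals are exact 95% intervals of a ratio of reads that cover counting error only. In pooled tissue, fewer cells of a type and less RNA per cell cannot be told apart.

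Gene reads numbered between 16787729 (CT22) and 19303490 (CT40) per library. The ClockΔ19 allele was visible in all libraries, with 151 junction reads that skip exon 19 of Clock against 1 on each side that joins it. Summed hepatocyte markers were between 79544 and 92813 RPKM. Markers of muscle or heart and of brown fat, tissues rich in these complexes, were near 0. The 5 of muscle or heart summed to between 0.45 and 0.96 RPKM, mostly from Tnnt2 (0.45 to 0.88), while Myl2 had no reads. The 2 of brown fat summed to between 0 and 0.14 RPKM, with no reads of Ucp1. The CT22 library stood apart in several respects. It had the most intron reads (23.7 per 100 gene reads, against 16.5 to 19.04 later), the most mitochondrial reads, and the least 5′ over 3′ read density by the median log2 over genes (0.31, against 0.49 to 0.76). The sinusoidal endothelium markers were lower at CT22 than at CT34 in 6 of 6 genes, with a median log2 ratio of -0.99. Their summed RPKM was 59.7, 62.1, 92.5 and 63.3 in time order, so here CT34 was the library that stood apart. The part of these library differences in the results below was not tested.

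Most members were highest at CT22. Of the 82, 55 had their highest value at CT22, against 33.7% of all genes tested. Another 15 were highest at CT28 (16.9% of all genes), 5 at CT34 (20.4%) and 7 at CT40 (29.0%). The lowest value was at CT40 in 46 members (25.5% of all genes), at CT22 in 13 (40.2%), at CT28 in 10 (14.7%) and at CT34 in 13 (19.6%). Between neighbouring times, 58 were lower at CT28 than at CT22 (46.4% of all genes). Another 55 were lower at CT34 than at CT28 (49.3%) and 57 lower at CT40 than at CT34 (48.6%). The first step was the largest: 15 members were at least 1.5-fold lower (657 of 8884 genes), 6 of them 2-fold (125 genes). Only 1 was at least 1.5-fold higher (862 genes). The later steps were small, with 2 (222 genes) and then 0 members (315 genes) at least 1.5-fold lower. In each of them 1 member was at least 1.5-fold higher (208 and 339 genes). In 26 members, the value was lower at each later time, against 10.4% of all genes. The median log2 steps were -0.28, -0.08 and -0.07. Values are given as RPKM, which stands for reads per kilobase of transcript relative to the gene reads of the library, scaled between libraries by the TMM method.

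**Figure D1:**
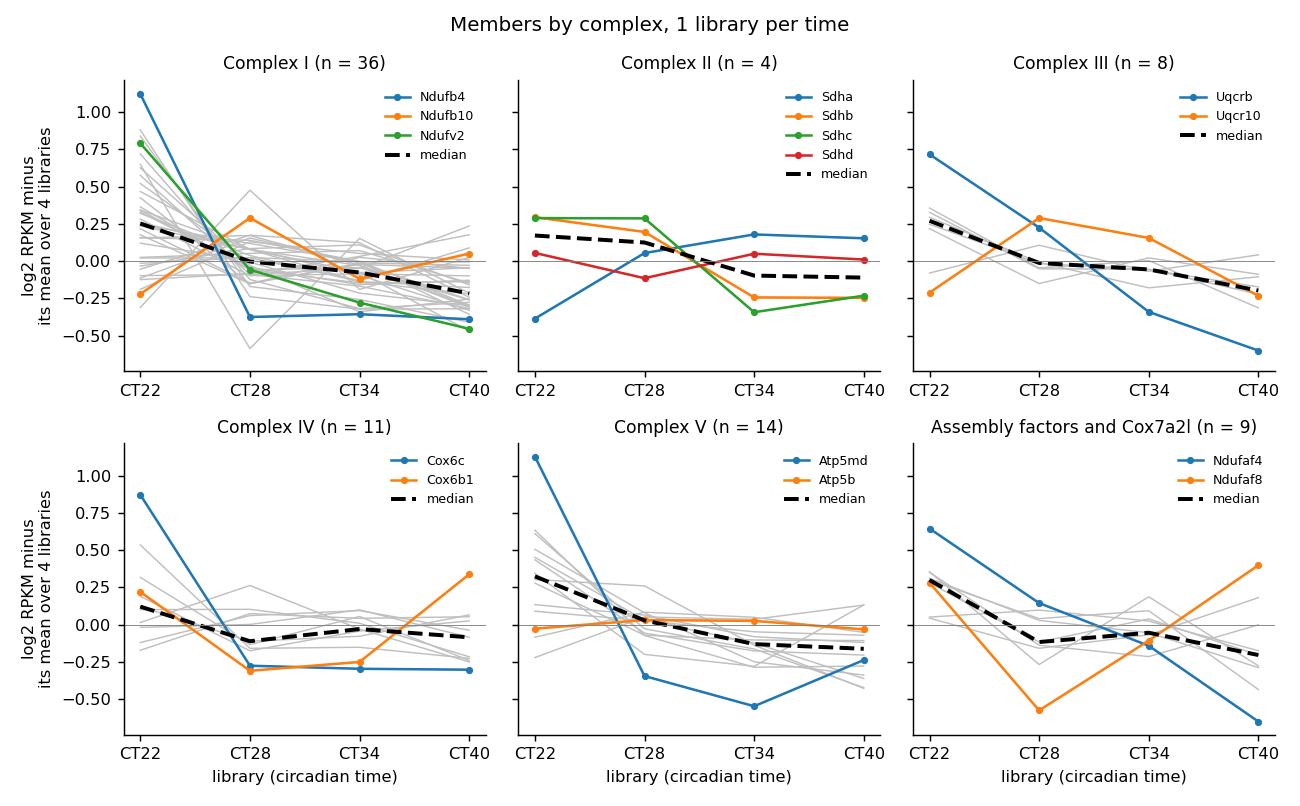
Log2 RPKM of each of the 82 members minus its mean over the 4 libraries, by complex, with circadian time on the x axis; grey lines are single genes, coloured lines are named genes and the dashed line is the median. Medians are highest at CT22 in all 6 panels, while Sdha, Uqcr10 and Ndufb10 are lower at CT22 than at CT34.

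The size of the differences was ordinary. A range of at least 2-fold between the highest and the lowest library was seen in 11 members (13.4%), against 12.6% of all genes tested, and a range of at least 1.5-fold in 34, against 43.4%. The median log2 range was 0.53 for the members and 0.53 for all genes. All 11 members with a 2-fold range were highest at CT22, and without the CT22 library none had such a range (3.28% of all genes did). Leaving out CT34 or CT40 instead left 10 and 9 such members (10.1% and 7.78% of all genes).

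CT22 and CT34 lie 12 h apart. Of the 82 members, 63 were higher at CT22, against 47.1% of all genes, and the median log2 ratio was 0.30, against -0.04. At least 1.5-fold higher at CT22 were 19 members (11.9% of all genes) and at least 2-fold higher 8 (3.08%). No member was 1.5-fold lower, where 14.5% of all genes were, or 2-fold lower (3.78%). These counts depend on the scale: with deposited values 10 members were at least 1.5-fold higher (6.1% of all genes), 2 of them 2-fold (Atp5md and Ndufb4; 1.68%), and Sdha was 1.5-fold lower (25.5%). The deposited values without further scaling shift the median of all genes to -0.24, and on that scale 49 members were higher (32.6% of all genes) and 33 lower, with a median of 0.09.

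The second 12-h pair, CT28 against CT40, had the same direction with smaller ratios. Higher at CT28 were 64 members, against 49.2% of all genes, with a median log2 ratio of 0.14, against -0.01. The other 18 were lower (50.8% of all genes). Only 3 members were at least 1.5-fold higher (5.02% of all genes) and 2 at least 1.5-fold lower (5.71%), and none was 2-fold apart (1.18% of all genes higher, 1.06% lower). On the deposited scale, where the median of all genes was -0.12, the split was 43 higher (35.2% of all genes) and 39 lower.

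**Figure D2:**
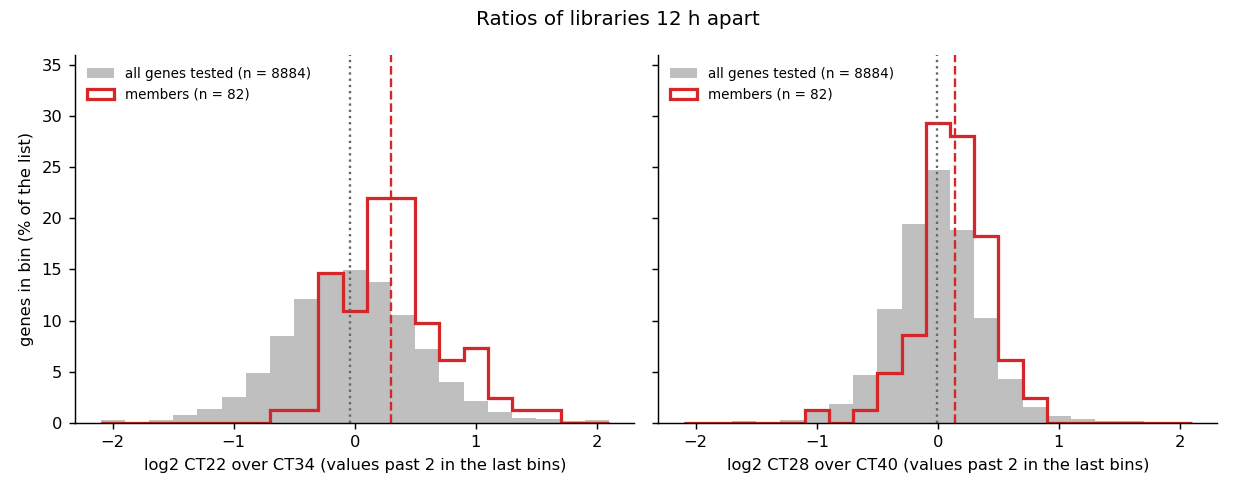
Share of genes (%) by log2 ratio in bins of 0.2, for CT22 over CT34 and CT28 over CT40; grey bars are the 8884 genes tested, the red outline the 82 members, and dotted and dashed lines their medians. The members' median lies at 0.30 in the first panel and at 0.14 in the second, to the right of all genes in both.

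Members are short transcripts, with a median length of 715.5 bases against 2800.5 for all genes, and short transcripts of any kind were higher at CT22. Up to 500 bases, the median log2 CT22 over CT34 was 0.49 in 17 members and 0.45 in 53 other genes. Between 500 and 600 bases it was 0.38 (17 members) and 0.49 (57 others), and between 600 and 800 bases 0.22 (14) and 0.40 (201). From 800 to 1200 bases the medians were 0.37 (13) and 0.30 (576). Above 1200 bases, where 7915 other genes lie, they were 0.20 (21 members) and -0.08. The members' median was thus slightly above that of other genes in the shortest bin, below it in the next 2, and above it beyond 800 bases. The bin above 1200 bases has no upper limit, so members and other genes in it were not matched in length. With a cubic trend in transcript length and GC content removed from each library, 36 of 82 members were higher at CT22, against 47.3% of all genes, and the median log2 ratio was -0.06. For CT28 over CT40 the same values were 43 members, 48.7% and 0.02, and 28 members were highest at CT22, against 29.8%. A 2-fold range was then seen in 3 members, against 8.05% of all genes. At least 1.5-fold higher at CT22 than at CT34 were 4 members (6.94% of all genes) and at least 1.5-fold lower 5 (9.24%), namely Atp5mpl, Cox5a, Cox7b, Ndufa1 and Uqcr10. With a trend in GC content alone removed, 72 members were higher at CT22 (46.8% of all genes). Scaled by total gene reads, 62 members were highest at CT22 (40.1%). Across genes, which are not replicates and share their libraries, Pearson's r between log2 length and the log2 CT22 over CT34 ratio was -0.25 in members (n = 82) and -0.28 in all genes (n = 8884).

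**Figure D3:**
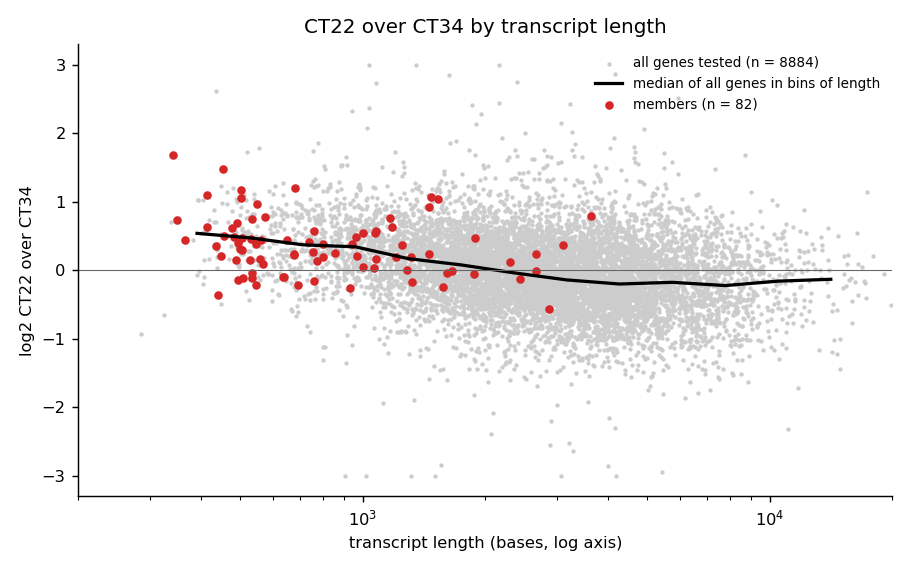
Log2 CT22 over CT34 (y axis, values past 3 drawn at 3) against transcript length in bases (log axis); grey points are the 8884 genes tested, the black line their median in bins of length with at least 20 genes, and red points the 82 members. The black line lies above 0 for short transcripts and below 0 for long ones, and the members under 800 bases scatter about it.

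Complex I takes electrons from NADH. Its 7 core subunits, which carry the redox centres, did not share the shift: 3 were higher at CT22 than at CT34, with a median log2 ratio of -0.01, or 0.06 when scaled by total gene reads. In junction reads all 7 were higher at CT22, with a median of 0.28. The other 29 subunits, short proteins added around the core, were higher at CT22 in 23, with a median of 0.37. Their median length was 560.0 bases, against 1472.0 for the core. Removing the length and GC trend brought the medians to 0.02 for the accessory subunits and -0.05 for the core.

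Ndufs1, the largest iron-sulfur subunit of the core, was the most level member of all, at 25.6, 26.3, 25.8 and 25.8 RPKM in time order. The 3 core subunits higher at CT22 than at CT34 were Ndufv2, Ndufs8 (1.402-fold, interval 1.32 to 1.49) and Ndufs3 (1.295-fold, 1.14 to 1.48, with shared reads that raise its total 2.197-fold). Ndufv2, an iron-sulfur subunit of the NADH-oxidising arm (chromosome 17, 66428135 to 66450831, mm9), had 77.4, 43.0, 36.9 and 32.7 RPKM. Its CT22 library alone was high, and its range was 2.37-fold (interval 2.19 to 2.57). Its annotated splice junctions gave 2752, 1642, 1369 and 1290 reads, and with the length and GC trend removed its range was 1.49-fold.

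Among the accessory subunits of complex I, the widest ranges belonged to 4 small proteins. Ndufb4, of the membrane arm, was at 39.3 RPKM at CT22 and between 13.8 and 14.1 later, a range of 2.85-fold (2.30 to 3.55), but it shares most of its reads with other loci. Adding those raises its total 6.97-fold, and its range is then 1.85-fold. Ndufc1 had 51.5, 25.6, 24.1 and 21.7 RPKM and Ndufc2 had 83.7, 38.5, 36.4 and 36.4. Both encode subunits of the membrane arm, and both were about level over the last 3 libraries, with ranges of 2.38-fold (1.98 to 2.87) and 2.30-fold (2.06 to 2.58). Ndufb2, another membrane subunit, had a different order, at 43.4, 18.4, 30.7 and 23.8 RPKM, with its lowest value at CT28 (2.36-fold, 1.94 to 2.87). Ndufs4, a subunit whose loss causes encephalopathy in mice and humans, had 15.7, 8.78, 7.67 and 7.89 RPKM. It is among the members with the most intron reads, at 312, 212, 216 and 214 scaled reads, also highest at CT22.

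The 2 most abundant complex I genes were Ndufa3 and Ndufa6, both accessory subunits. Ndufa3 had 401, 278, 240 and 227 RPKM, with CT22 well above the rest, and Ndufa6 had 240, 238, 215 and 176, with CT40 alone low (on the deposited scale Ndufa6 was lower at CT22 than at CT34). Of the 36 members of the complex, 10 were lower at CT22 than at CT34 (52.9% of all genes) and 7 were lowest at CT22 (40.2%). Ndufb10, a membrane subunit, was lowest at CT22 and highest at CT28 (108, 154, 116 and 131 RPKM). Ndufb7 and Ndufs7 were highest at CT40, with ranges of 1.26-fold and 1.23-fold. The direction of Ndufb7 between CT22 and CT34 depended on the scaling, with log2 ratios from -0.25 to 0.02.

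Complex II, succinate dehydrogenase, has 4 subunits, all of them members. They did not share one order. Sdha, the flavoprotein that oxidises succinate (chromosome 13, 74459703 to 74487688), was at 82.2 RPKM at CT22 and 111, 122 and 119 later. It was 1.48-fold higher at CT34 than at CT22 (interval 1.42 to 1.54), the largest ratio in that direction among the 82 members. Sdhb, the iron-sulfur subunit, had 179, 167, 123 and 123 RPKM, high in the first 2 libraries and lower in the last 2. Sdhc, a membrane anchor, had the same shape at 268, 267, 173 and 187, and Sdhc over both 12-h pairs was 1.55-fold (1.49 to 1.62) and 1.43-fold (1.38 to 1.49). Sdhd, the other anchor, was nearly level, between 55.5 and 62.5 RPKM. With the length and GC trend removed, the log2 CT22 over CT34 ratio was -0.54 for Sdha, 0.40 for Sdhb and 0.30 for Sdhc, so these differences within the complex were smaller for Sdhb and Sdhc and about as large for Sdha. Sdha junction reads were also lowest at CT22 (3347, 4905, 5368 and 5430, unscaled), and its scaled intron reads were 262, 241, 247 and 284. Its CT34 over CT22 ratio was smaller in scaled junction reads (1.31-fold) and in the 3′ part of the transcript (1.23-fold).

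Complex III passes electrons from ubiquinol to cytochrome c. Of its 8 members 6 were higher at CT22 than at CT34 and 7 higher at CT28 than at CT40. On the deposited scale these were 5 and 5, beside 32.6% and 35.2% of all genes. Uqcrb, the ubiquinone-binding protein (chromosome 13, 67001557 to 67006286), was lower at each time than at the one before, at 297, 212, 143 and 119 RPKM. Its range was 2.49-fold (2.32 to 2.67), and it was the only subunit at least 1.5-fold higher at the first time of both 12-h pairs: 2.08-fold for CT22 over CT34 (1.95 to 2.23) and 1.77-fold for CT28 over CT40 (1.65 to 1.91). With the length and GC trend removed, its log2 ratios were 0.03 and 0.55, so that the second pair kept most of its difference and the first did not. Uqcrq, a small subunit and the most abundant of the complex, had 542, 452, 439 and 405 RPKM. Uqcrc1, a core protein of the matrix side, was nearly level between 226 and 257. Uqcr10, one of the smallest subunits, was high in the middle libraries, at 122, 173, 157 and 120.

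Complex IV reduces oxygen. Its members were the least shifted of the complexes with subunits from both genomes, with 8 of 11 higher at CT22 than at CT34. The median log2 ratio was 0.20, which became -0.01 on the deposited scale, where that of all genes was -0.24. With the length and GC trend removed, 1 of 11 was higher at CT22 and the median was -0.41, the lowest of the complexes. Cox6a1 and Cox8a, the most abundant of the complex by mean RPKM, were close to level: Cox6a1 had 883, 895, 957 and 843 RPKM, and Cox8a had 585, 663, 679 and 619. Cox6c was the only complex IV subunit with a 2-fold range, at 273 RPKM at CT22 and between 121 and 123 later (2.26-fold, 2.10 to 2.42). Ndufa4, first named as a complex I protein and now counted with complex IV, had 596 RPKM at CT22 and between 352 and 370 later. With the trend removed, its log2 CT22 over CT34 ratio turned from 0.69 to -0.21.

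Cox6b1 had a shape of its own. This subunit of the intermembrane face, which helps complex IV form dimers (chromosome 7, 31401993 to 31411170), was at 185, 128, 134 and 201 RPKM, high in the CT22 and CT40 libraries and low in the other 2. It was 1.57-fold higher at CT40 than at CT28 (1.46 to 1.68), where most members were lower. Junction reads were also high at CT22 and CT40 and low in the other 2 libraries (1632, 1128, 1156 and 2463, unscaled). With the length and GC trend removed the log2 CT28 over CT40 ratio was -0.81, against -0.65. Ndufaf8, an assembly factor of complex I, had the same shape at 21.99, 12.1, 16.8 and 23.9 RPKM, with CT40 over CT28 at 1.96-fold (1.56 to 2.49), from 111 to 226 reads per library. These were the 2 members at least 1.5-fold lower at CT28 than at CT40.

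In complex V, the ATP synthase, 2 of the 5 subunits of the catalytic F1 head were higher at CT22 than at CT34. Their median log2 ratio was -0.05, or 0.01 when scaled by total gene reads, and in junction reads 4 of 5 were higher, with a median of 0.17. The 9 others, of the stalk and the membrane part, were higher in 9, with a median of 0.57. With the length and GC trend removed the medians were -0.06 and 0.03, and 5 of the 9 were higher. Atp5b, the catalytic beta subunit, had 625, 651, 648 and 623 RPKM, and Atp5a1, the alpha subunit, had 346, 389, 379 and 354. Together these 2 genes took 22.8% of all member reads, and their ranges were 1.04-fold and 1.12-fold. Atp5o, the protein that joins the stalk to the head, was as level, between 110 and 123 RPKM (1.12-fold). The 2 F1 subunits higher at CT22 were Atp5c1, the gamma subunit and rotor of the head, at 368, 274, 218 and 205 RPKM, and Atp5e, the small epsilon subunit, at 69.5, 47.6, 45.1 and 59.9. CT22 over CT34 was 1.69-fold (1.63 to 1.75) for Atp5c1 and 1.54-fold (1.34 to 1.78) for Atp5e.

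Atp5md, a small membrane subunit that helps synthase dimers form (chromosome 19, 47157961 to 47165115), had the widest range of all members. Its levels were 185, 66.7, 58.0 and 71.9 RPKM, from 1104, 421, 355 and 470 reads, so the CT22 library alone was high and the other 3 were alike. The range was 3.19-fold (2.83 to 3.61), it was 3.55-fold in junction reads and 2.55-fold with shared reads added, and 1.66-fold with the length and GC trend removed. Atp5h, a subunit of the peripheral stalk, had 241, 155, 141 and 118 RPKM (2.05-fold, 1.91 to 2.19), and Atp5pb, the stalk's b subunit, had 121, 74.0, 63.8 and 64.2.

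The assembly factors and Cox7a2l were higher at CT22 than at CT34 in 9 of 9, with a median log2 ratio of 0.24. On the deposited scale 6 of 9 were higher, beside 32.6% of all genes. Ndufaf4, needed for early steps of complex I assembly, is a long transcript (3632 bases) and yet had one of the widest ranges, with 6.38, 4.51, 3.70 and 2.60 RPKM and lower values at each later time. The range was 2.45-fold (2.05 to 2.94), but in junction reads it was 1.72-fold, from 123 reads or fewer per library. Cox7a2l had 79.5, 56.6, 53.7 and 62.2 RPKM.

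Several subunits are encoded by more than one gene, of which one serves liver and another heart, muscle or testis. In these libraries the liver or general form carried nearly all reads. Cox6a1 averaged 894 RPKM while Cox6a2, the heart and muscle form, had 6 reads in all 4 libraries. Cox4i1 had a mean of 261 RPKM, and Cox4i2, a form known from lung, had 5 reads. Cox8a averaged 636 RPKM, against 1 read of Cox8b (muscle) and 0 reads of Cox8c (testis), a level at least 7387-fold lower per length at the limit of 3 reads over the 4 libraries. Cox7b2 (testis) also had 0 reads, at least 1635-fold below the 124 RPKM of Cox7b. Cox6b2, another testis form, had 17 reads against 162 RPKM of Cox6b1. In time order Cox4i1 had 297, 231, 253 and 265 RPKM, with CT22 highest, and Cox7b had 124, 147, 120 and 103, with CT28 highest.

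Of the sets with a minor form that could be measured, Cox7a1, the muscle form, had 38 reads and a mean of 1.42 RPKM, 34.7-fold under Cox7a2 (61.0, 44.6, 50.9 and 41.5 RPKM in time order). Ndufa4l2, known as a hypoxia-induced paralogue, had 1.605, 1.797, 1.679 and 1.951 RPKM, in an order unlike that of Ndufa4, from 31 reads per library on average. Cox5a and Cox5b encode separate subunits, with means of 68.8 and 77.3 RPKM, with Cox5a lowest and Cox5b close to its highest at CT22. Cox5a had 61.0, 72.3, 70.7 and 71.3 RPKM and Cox5b 82.6, 82.7, 77.5 and 66.3. Cox5b shares reads with other loci, which raise its total 2.97-fold. The c subunit of complex V is one protein made by 3 genes. Atp5g3 averaged 79.2 RPKM, Atp5g1 60.03 and Atp5g2 4.61, with levels highest at CT22 and ranges of 1.19-fold and 1.31-fold for the first 2. Shared reads raise Atp5g1 3.00-fold and Atp5g2 10.2-fold, so the order of these genes is uncertain.

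**Figure D4:**
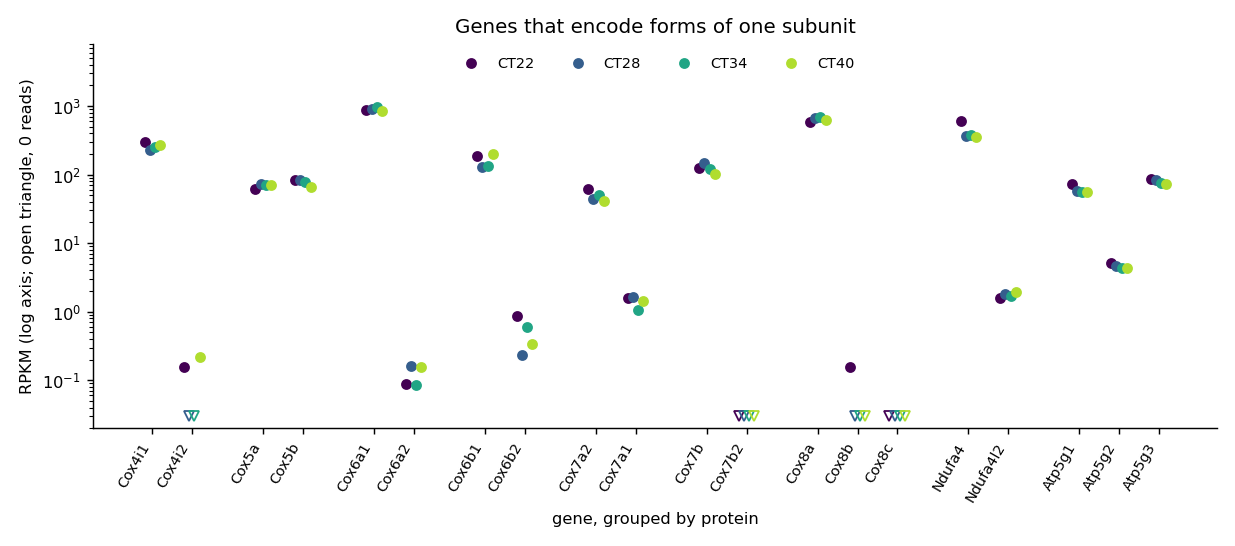
RPKM (log axis) of the genes that encode forms of one subunit, and of Cox5a and Cox5b, 4 points per gene for the 4 libraries, with open triangles at the foot for 0 reads. Cox4i2 and the muscle, heart and testis forms lie at or below 1.62 RPKM. Ndufa4l2 lies at or below 1.95, Atp5g2 between 4.30 and 5.13, and the other genes between 41.5 and 957.

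Beyond these, 15 genes taken by the prefixes stayed under 100 reads. They were Cox7b2, Cox8c, Cox8b, Cox4i2, Cox6a2, Cox6b2, Cox7a1, Sdhaf3, Ndufaf5, Ndufa4l2, Atp5l, Sdhaf4, Atp5g2, Ndufaf2 and Atp5k. Atp5l and Atp5g2 fell short only in uniquely placed reads, with means of 36 and 54.5 reads against 754 and 557 when shared reads are added. Just outside the minimum lay Atp5k (69.2) and Ndufaf2 (56.5), and just inside it Ndufs5 (114), Ndufaf3 (130) and Ndufb4 (166). In 7 members the shared reads raised the total more than 1.5-fold (3.52% of all genes tested did so): Ndufb4, Ndufs5, Atp5g1, Cox5b, Ndufs3, Cox7c and Ndufa12. The libraries do not mark strand, and exons of 7 members overlap a transcript of the opposite strand, by up to 27.5% of their bases in Ndufa13, so reads of those stretches cannot be told apart.

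Reads spanning annotated splice junctions give another measure of the same RNA. They come from the same libraries as the exon reads and can be the same reads, so the measures are not independent. At CT22 members had 164858 junction reads beside 176218 exon reads. Over the 78 members with at least 100 junction reads, 72 were higher at CT22 than at CT34 (50.9% of all genes) and 70 higher at CT28 than at CT40 (50.5%), with median log2 ratios of 0.46 and 0.29. The direction matched that of the exon reads in 62 and 69 of the 78. A 2-fold range in junction reads was seen in 20 of 79 members, against 18.5% of all genes. Intron reads, which come mostly from unspliced RNA, were fewer: 62 members had a mean of at least 50. Of these, 37 were higher at CT22 than at CT34 (47.3% of all genes), with a median of 0.15 where exon reads of the same 62 gave 0.37. For CT28 over CT40 it was also 37 of 62 (48.5%), with a median of 0.10, and the direction matched that of the exon reads in 45 and 38 of 62. Summed over members, scaled intron reads were 11995, 11736, 11637 and 11392, and exon reads 184208, 170438, 162044 and 155775. The intron values rest on scaling factors of their own. Per 100 gene reads, members' intron reads were 0.0864, 0.0645, 0.0538 and 0.0536, so whether intron reads were level or highest at CT22 depends on the scaling.

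The mitochondrial genome supplies the other subunits. Reads on its features came, in time order, to 18.2, 10.2, 6.74 and 6.49 per 100 gene reads, and members' reads to 1.0497, 0.905, 0.882 and 0.847. Both were highest at CT22 and lowest at CT40, but the mitochondrial reads differed more, and their ratio to member reads was 17.3, 11.3, 7.64 and 7.66. All 8 features were higher at CT22 than at CT34. The ratio was 4.64 for mt-Rnr1 (a ribosomal RNA), 3.64 for the span of mt-Rnr2 and ND1, 2.90 for ND2, 2.74 for COX1, 2.29 for ND4L with ND4, and 2.32 for ND5 to CYTB. COX1, the catalytic subunit of complex IV, took 6.67 reads per 100 gene reads at CT22 and 2.44 at CT34. Of the 11 nuclear members of complex IV, 8 were also higher at CT22 than at CT34, while the most abundant, Cox6a1 and Cox8a, were slightly lower. COX2 and the ATP8 and ATP6 span have nearly all their reads shared with other loci. With those reads added, their ratios were 1.58 and 2.80, and all chrM reads came to 25.8, 15.1, 10.00 and 9.37 per 100 gene reads. Genes on these spans were named by position, since the files give no symbols there.

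**Figure D5:**
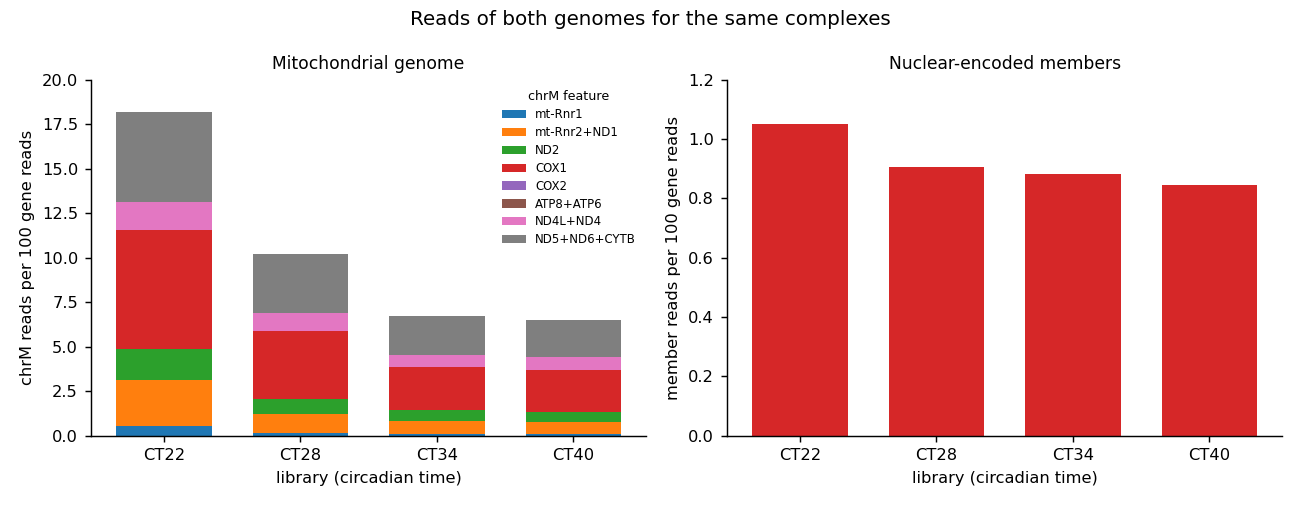
Reads per 100 gene reads in each library, for the 8 features of the mitochondrial genome (left, stacked) and for the 82 nuclear-encoded members summed (right). Both axes start at 0 and differ in scale; mitochondrial reads go from 18.2 to 6.49 and members from 1.0497 to 0.847.

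Genes that surround the pathway were read from lists of its other parts, beside the 47.1% of all genes that were higher at CT22 than at CT34. Of 25 other assembly factors, 18 were higher at CT22 than at CT34 with a median log2 ratio of 0.26, and of 75 mitochondrial ribosomal protein genes 58 were, with 0.34. Cytosolic ribosomal proteins, also short transcripts, gave 55 of 64 and 0.43, and proteasome subunits 27 of 36 and 0.19. Enzymes of the TCA cycle, which feeds the chain, were split (10 of 18, median 0.03, or -0.18 on the deposited scale), as were regulators of mitochondrial biogenesis (8 of 17, -0.01, or 0.06 when scaled by total gene reads). Among 18 electron, ATP and phosphate carriers, 12 were higher at CT22, with a median of 0.16 that became -0.04 on the deposited scale. The median of all genes was -0.04 as reported, -0.24 on the deposited scale and 0.03 when scaled by total gene reads. Ogdh, which encodes a TCA cycle dehydrogenase, was at 33.7 RPKM at CT22 and 62.2, 69.4 and 74.0 later, and Pcx, the pyruvate carboxylase that refills the cycle, at 67.5, 98.3, 137 and 145. Of the 25 other assembly factors, 5 were at least 1.5-fold higher at CT22 than at CT34 (11.9% of all genes) and 1 lower (14.5%). The largest ratios were those of Cox16 (2.53-fold), Coa6 (2.52-fold) and Cox20 (2.34-fold). The 1 that was lower was Sco2, a copper chaperone of complex IV, at 78.7 RPKM at CT22 and 114, 155 and 131 later. Polrmt, the mitochondrial RNA polymerase, was also lower at CT22 (5.62 RPKM, against 8.95, 11.6 and 9.59). Other genes of mitochondrial transcription and RNA stability went both ways. CT22 over CT34 was 1.55-fold for Tfb2m, 1.37-fold for Tfam, 2.07-fold for Mterf3 and 1.66-fold for Slirp, but 0.821 for Lrpprc (interval 0.765 to 0.881). Twnk (0.551) and Polg (0.807), also among the listed regulators, were lower at CT22 too. Cycs, cytochrome c, had a range of 7.29-fold in unique reads, but shared reads raise its total 8.39-fold. Its partner in complex III, Cyc1, was level between 105 and 114 RPKM.

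The promoters of 69 members were found in RefSeq's table (build GRCm38.p6, 250 bases before to 50 after the start, 74 windows). They were searched on both strands for letters that known regulators of these genes or of the clock can bind, and for common promoter motifs. The E-box CACGTG, which Clock with its partner binds, was in 5 of 69 members (7.25%), against 12.5% of the 7139 genes tested that have a window. AAGATGGC, a form of the YY1 motif, was in 11 (15.9%, against 5.995%). The palindromic motif of nuclear respiratory factor 1 was in 4 (5.80%, against 2.48%), and TCAAGGTCA, bound by the estrogen-related receptors, in 2 (2.90%, against 0.266%). CCGGAAGT, an ETS motif, was in 5 (7.25%, against 9.96%). Of the common motifs, the GC box GGGCGG was in 33 (47.8%, against 70.3%). CCAAT was in 30 (43.5%, against 42.6%) and TATAAA in 5 (7.25%, against 8.98%). No test was made, and a match is a run of letters in this window, not a shown binding site.

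The stretches upstream of the start that hold an E-box are printed because these animals carry a mutant Clock, each as 80 bases read 5′ to 3′ on the gene's strand, with CACGTG in capitals. CACGTG reads the same on both strands. They lie at chr11:96075633-96075712 (Atp5g1, minus strand), chr2:73911497-73911576 (Atp5g3, minus), chr3:105959434-105959513 (Atp5pb, minus), chr17:33824463-33824542 (Ndufa7, plus) and chr19:4012882-4012961 (Ndufv1, minus).
Atp5g1: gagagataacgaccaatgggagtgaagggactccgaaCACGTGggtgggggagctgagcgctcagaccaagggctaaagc
Atp5g3: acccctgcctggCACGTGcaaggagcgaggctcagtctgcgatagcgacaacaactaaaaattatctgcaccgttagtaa
Atp5pb: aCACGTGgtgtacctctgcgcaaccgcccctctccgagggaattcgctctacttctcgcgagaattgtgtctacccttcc
Ndufa7: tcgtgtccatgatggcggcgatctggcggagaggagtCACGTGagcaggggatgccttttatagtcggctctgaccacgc
Ndufv1: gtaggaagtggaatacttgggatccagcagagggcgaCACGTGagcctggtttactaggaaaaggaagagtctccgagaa
These 5 genes differed in direction. CT22 over CT34 was 1.89-fold for Atp5pb (interval 1.78 to 2.01), 1.303-fold for Atp5g1, 1.16-fold for Atp5g3 and 0.846 for Ndufv1, the flavoprotein of complex I, with RPKM of 46.5, 58.0, 54.9 and 53.3. Ndufa7, an accessory subunit, had 96.9 RPKM at CT22 and 69.2 at CT34.

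For comparison, 3 stretches that hold the nuclear respiratory factor 1 motif are printed the same way, with that motif in capitals, from chr5:115349076-115349155 (Cox6a1, minus strand), chr17:56717667-56717746 (Ndufa11, plus) and chr4:24897935-24898014 (Ndufaf4, plus). Their genes include the member with the highest mean RPKM and one of those with the widest range.
Cox6a1: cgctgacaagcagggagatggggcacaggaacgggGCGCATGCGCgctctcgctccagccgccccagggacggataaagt
Ndufa11: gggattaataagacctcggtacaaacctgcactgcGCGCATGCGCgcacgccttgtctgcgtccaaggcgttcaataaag
Ndufaf4: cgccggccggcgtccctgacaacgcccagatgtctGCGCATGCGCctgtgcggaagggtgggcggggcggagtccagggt
CT22 over CT34 was 0.922 for Cox6a1 (the level member above), 1.18-fold for Ndufa11 and 1.72-fold for Ndufaf4. The match in Uqcrc1, at 0.992, lies after the start and is not printed.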

How the data were processed

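The authors deposited, per library, a lower and an upper value for each transcript, exon and intron, and junction read counts. The deposited feature values have no stated unit; like RPKM, times length they were whole multiples of 1 step per library for 99.78 to 99.83% of lower values (within 0.05 read beyond rounding), which gave reads. The lower value was read as uniquely placed reads and the upper as shared reads added, inferred from the values. Coordinates are in mm9, the build in the submitters' processing notes. The deposited junction counts carry the name RUM, per the file headers. Which version was run, and how features were counted, is not given in the sources used here.

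Symbols were found for 25898 transcripts in RefSeq tables and for 148 in GENCODE (1189 had none), and each gene took its transcript with the highest mean. Reads were scaled by TMM (edgeR 4.0.16, R 4.3.3), and reads under 3 were set to 3 in ratios. GC content came from reference transcripts. DESeq2 1.42.0 size factors were an alternative. No test was run, since each time has 1 library. Scripts used Python 3.11.15, pandas 2.3.3 and scipy 1.17.1, and the steps recovered known folds in simulated counts. Members and lists were chosen with earlier results of these data known. Genes named with all values were the 2 most abundant per complex, the 8 widest and 4 narrowest ranges, complex II and all isoform sets. The other named genes were chosen after their values were seen: those with a 2-fold range beyond the 8, those that ran against the rest, those with printed promoters and the pathway genes.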

Additional observations from a re-analysis of the deposited data

How the results depend on the processing

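Under the other scalings, upper values, the longest transcript, the 3′ part of transcripts and a minimum of 10 reads, the counts of members with a 2-fold range, higher at the first time of each 12-h pair and highest at CT22 kept within 1.5 times. Counts past a fold did not. With deposited values 2 members (1.68% of all genes) were at least 2-fold higher at CT22 than at CT34, against 8 (3.08%). In the 3′ part there were 5 (3.86%). Those at least 1.5-fold higher at CT28 than at CT40 were 6 in the 3′ part (5.92% of all genes), against 3 (5.02%). Without further scaling the medians moved to 0.42 (range), 0.092 (CT22 over CT34) and 0.029 (CT28 over CT40). With a minimum of 500 reads, 5 of 60 members were at least 2-fold higher at CT22 than at CT34 (2.39% of 4269 genes). A 2-fold range was then seen in 6 of the 60, against 11 of 82 as reported (12.6% of all genes). A range of at least 1.5-fold was seen in 34 of 82 members (43.4% of all genes). Junction reads gave 20 members of 79 with a 2-fold range (18.5% of all genes) and medians of 0.71, 0.46 and 0.30. With the length trend removed these were 6 members, 0.39, -0.034 and 0.035, with 35 higher at CT22 than at CT34 and 27 highest at CT22, against 10.7% (2-fold range), 46.5% and 32.5% of all genes. With GC content removed as well, they were 3 members, -0.059 for CT22 over CT34 and 0.023 for CT28 over CT40, with 36 higher and 28 highest at CT22. The log2 CT22 over CT34 of Ndufa4 was then -0.21. Removing GC content alone, an alternative chosen after seeing the data, gave 72 members higher at CT22 (46.8% of all genes). Leaving out 1 library gave 0 to 10 members with a 2-fold range and a median log2 range of 0.24 to 0.52; it was 0 and 0.24 without CT22, and without CT40 the median was 0.40. Reads on chrM as a percent of the denominator implied by the step were 11.1, 7.06, 4.96 and 4.74, and by upper values 25.8, 15.1, 10.00 and 9.37 per 100 gene reads. No paired analysis was possible because each time has 1 library. Of the alternative values of named members, 599 kept their side of a 1.5-fold ratio, 21 no longer passed it, 19 newly passed it and 1 turned. Depth limits the genes near 100 reads, and the isoforms with few reads. All statements rest on 1 library per time, so variation between animals was not measured.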
